A study of Mus musculus with 8 samples.

Results

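The cytosolic ribosomal protein genes encode the proteins that, with ribosomal RNA, form the large and small subunits of the ribosome. Members were the rows of the deposited count table whose mouse symbol followed the pattern Rpl or Rps with a number and at most a short suffix, together with Rplp0, Rplp1, Rplp2 and Rpsa, without kinases of the Rps6k family and without rows named as pseudogenes. This gave 82 of 10913 listed genes, 49 of the large and 33 of the small subunit. Of them 7, Rpl3l, Rpl7l1, Rpl22l1, Rpl32l, Rpl39l, Rps4l and Rps27l, are listed here as paralogues of another member, and the annotation (GENCODE M21) lists Rps4l as a transcribed processed pseudogene and Rpl32l as a processed pseudogene. Rpl26 and Rpl30 were not analysed here.

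RNA came from group 2 innate lymphoid cells (ILC2), tissue lymphocytes that make type 2 cytokines, sorted from the thymus of untreated young male mice. There were 4 libraries from mice without Il25 (Il25 KO, here KO) and 4 from age-matched wild-type mice (Il25 WT, here WT). IL-25 is an epithelial cytokine that signals to ILC2 through a receptor containing IL17RB. The labels do not say how the KO was made, or whether each replicate was a separate animal or a pool, so the spread behind each p-value is that between these libraries and may be technical. The libraries counted transcript 3′ ends with unique molecular identifiers (UMIs), by MARS-seq, so a level here is a number of tagged molecules and does not scale with transcript length.

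Each ribosome holds a single copy of most of these proteins, and cells make them at closely matched rates. Their mRNAs are among the most abundant of a growing lymphocyte and carry a 5′ terminal oligopyrimidine (TOP) tract, a run of C and T that begins with a C at the cap and places their translation under mTOR and LARP1. Transcription of the genes follows growth signals, among them MYC. In lymphocytes the translation machinery is built up when cells leave rest and divide.

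Of the 82 members, 62 had an entry in the RefSeq promoter table (GRCm38.p6) and 52 had exactly 1, from 250 bases before to 50 after the annotated start. A C at the annotated start followed by at least 4 pyrimidines was found in 12 of the 52, or 23.1%, and in 2.4% of 22810 other genes with 1 entry. The 12 include Rpl32l, listed above as a processed pseudogene. A pyrimidine run of at least 8 bases that touched the 10 bases on either side of the start was found in 48.1% of members and 13.2% of the others, and the median longest run there was 7 bases against 4. Annotated starts can lie some bases from the cap site, so these counts describe the letters and not where transcription begins. The windows below run from 40 bases before to 20 after the annotated start, 5′ to 3′ on the gene's strand, for some of the members named in the results. All of those shown have a run of at least 8 bases, so they do not stand for all members. In Rps3a1 and Rps16, also named below, the longest run was 2 and 5 bases, without the C pattern at the start. Capitals mark the longest pyrimidine run near the start.
Rpl38 (chr11:114668540-114668599, + strand): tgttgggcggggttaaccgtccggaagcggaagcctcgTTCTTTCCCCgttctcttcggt
Rpl35 (chr2:39005112-39005171, - strand): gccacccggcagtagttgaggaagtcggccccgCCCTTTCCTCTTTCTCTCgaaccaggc
Rplp2 (chr7:141447611-141447670, + strand): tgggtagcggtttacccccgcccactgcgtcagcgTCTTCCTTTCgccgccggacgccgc
Rps18 (chr17:33955646-33955705, - strand): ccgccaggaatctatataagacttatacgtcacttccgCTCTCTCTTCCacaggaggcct
Rps9 (chr7:3704001-3704060, + strand): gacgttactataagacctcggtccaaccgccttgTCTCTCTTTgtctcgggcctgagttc
Rpl39 (chrX:37085203-37085262, - strand): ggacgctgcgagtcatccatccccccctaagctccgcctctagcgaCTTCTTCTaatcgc

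In Rpl38, Rpl35, Rplp2 and Rps18 the C-and-pyrimidine pattern stood at the annotated start itself, while in Rps9 and Rpl39 it did not. The motif GGGCGG, bound by Sp1, was present on either strand in 59.6% of member windows and 35.1% of the others, and CCGGAAG, an Ets site, in 40.4% and 9.0%. TATAAA was found in 13.5% and 14.8%, and AAGATGGC, bound by YY1, in 7.7% and 2.9%. The last letters of CCGGAAG are the first of AAGATGGC, so a match of both can overlap. The median GC content was 56.8% in member windows and 52.3% in the others. Among members with 1 promoter entry and a test of expression, the median log2 fold change of KO over WT was -0.13 for the 11 with the pattern at the start and also -0.13 for the 39 without it. The genes are spread over 19 chromosomes in GENCODE M21 (GRCm38, the assembly of mm10), with the most, 14, on chromosome 7.

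The libraries held 1915365 to 2932999 UMIs in KO and 2398817 to 3250718 UMIs in WT. All 14 listed ILC2 genes had a row, and their summed level was 871 to 958 CPM across KO and 770 to 981 CPM across WT, where CPM is the UMI count scaled to the library total after TMM normalization. Of 10 tested ILC2 genes 8 lay above 0 in KO and 2 below, with a median log2 fold change of 0.17. At an unadjusted p under 0.05, which 10.8% of all tested genes reached, 2 were higher and 1 lower, and 0 were called (edgeR). Of 22 thymocyte and T cell genes 19 had a row, and their summed level was higher than that of the ILC2 list, at 5700 to 6049 CPM across KO and 5239 to 7051 CPM across WT. Most single genes of that list had lower levels in KO although the sums overlapped: 13 of 17 tested genes lay below 0 in KO, with a median log2 fold change of -0.26, 7 lower and 1 higher at an unadjusted p under 0.05 and 0 called (edgeR). Every KO library lay below every WT library for Cd3d, part of the T cell receptor complex (120.5 to 189 CPM across KO and 217 to 318 CPM across WT, edgeR adjusted p = 0.0521), for Ptcra, the pre-T cell receptor chain (26.5 to 33.3 CPM across KO and 39.7 to 61.1 CPM across WT, edgeR adjusted p = 0.0917), and for Cd8b1, a coreceptor chain. Cd8b1 had 33.7 to 48.1 CPM across KO, and 357 CPM in WT replicate 1 against 55.7 to 65.2 CPM in the other WT libraries (edgeR adjusted p = 0.185). Ribosomal protein mRNA is made by every cell, so whether these counts stem from ILC2 or from accompanying cells was not tested, and in such bulk samples fewer cells of a type and less RNA per cell cannot be told apart. Listed genes of heat shock and of cell dissociation took 3.07% to 3.76% of UMIs in KO and 2.05% to 2.91% in WT, with no overlap.

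Ribosomal protein genes held 23.8% to 28.1% of all UMIs, and their mean share was lower in KO, with overlapping groups. Their share was 23.8%, 26.1%, 24.7% and 27.3% in KO replicates 1 to 4, against 28.1%, 27.8%, 26.0% and 27.1% in WT replicates 1 to 4. The mean share (± SD, n = 4 each) came to 25.5% ± 1.55 in KO, against 27.3% ± 0.924 in WT, a difference of -1.79 percentage points. KO replicates 2 and 4 lay within the WT range, and KO replicates 1 and 3 below it. With the heat shock genes taken out of the total, the difference was -1.59 points. Most single thymocyte and T cell genes were lower in KO, but the sum of their list was not, with means of 5904 CPM in KO and 5883 CPM in WT. That sum was 7051 CPM in WT replicate 1 and 5239 to 5673 CPM in the other WT libraries, against 5700 to 6049 CPM across KO. The part of these genes in the share difference was not tested. Without WT replicate 1, the library with the highest sum of that list, the share difference was -1.51 points. With the mean of that list as a covariate the median log2 fold change of members was -0.07. That covariate is a mean of log2(CPM + 1) over the tested genes and not their sum. It cannot be cleanly separated from genotype, because 13 of the 17 tested genes lay below 0 in KO.

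**Figure D1:**
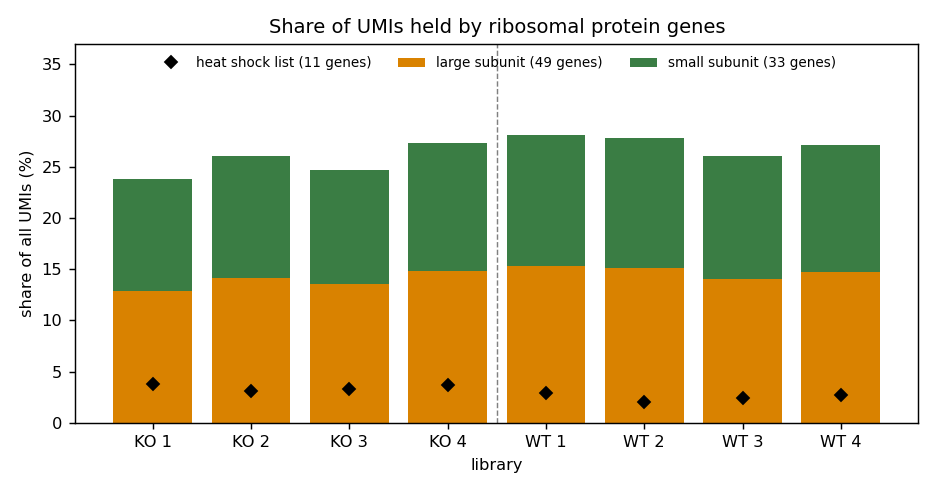
Share of all UMIs (%, vertical axis) held by the genes of the large and small subunit in each library, stacked, with the share of the heat shock list as diamonds. The stacks reach 23.8% to 27.3% in KO and 26.0% to 28.1% in WT.

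The mean difference had the same sign in both subunits. The large subunit genes held 13.8% ± 0.819 of UMIs in KO and 14.8% ± 0.575 in WT (SD, n = 4 each), and the small subunit genes 11.6% ± 0.744 in KO and 12.5% ± 0.352 in WT. Large subunit UMIs exceeded small subunit UMIs by a ratio of 1.18, 1.19, 1.22 and 1.18 in KO replicates 1 to 4, against 1.202, 1.19, 1.17 and 1.19 in WT replicates 1 to 4. These sums cover 49 large and 33 small subunit genes, so the ratio does not compare levels per gene. The mean ratio was 1.19 in both groups, with a difference of 0.002, below the SD of 0.019 in KO and 0.014 in WT. The sign of this difference was not stable, at -0.0072 without KO replicate 3 and -0.0046 without WT replicate 3. From the median CPM of the members in place of their sums, a different measure, the ratio of KO exceeded that of WT by 0.130. No p is given for these sums, since the members were chosen as a group.

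Mean levels of single members ran between 1.72 and 13542 CPM. Of the 82 genes, 61 averaged at least 1000 CPM over the 8 libraries, 7 lay between 100 and 1000 CPM, and 14 lay under 100 CPM. The median over members was 2302 CPM in the large and 3634 CPM in the small subunit. The 10 most abundant members held 28.7% to 31.8% of member UMIs in KO and 30.1% to 31.9% in WT.

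**Figure D2:**
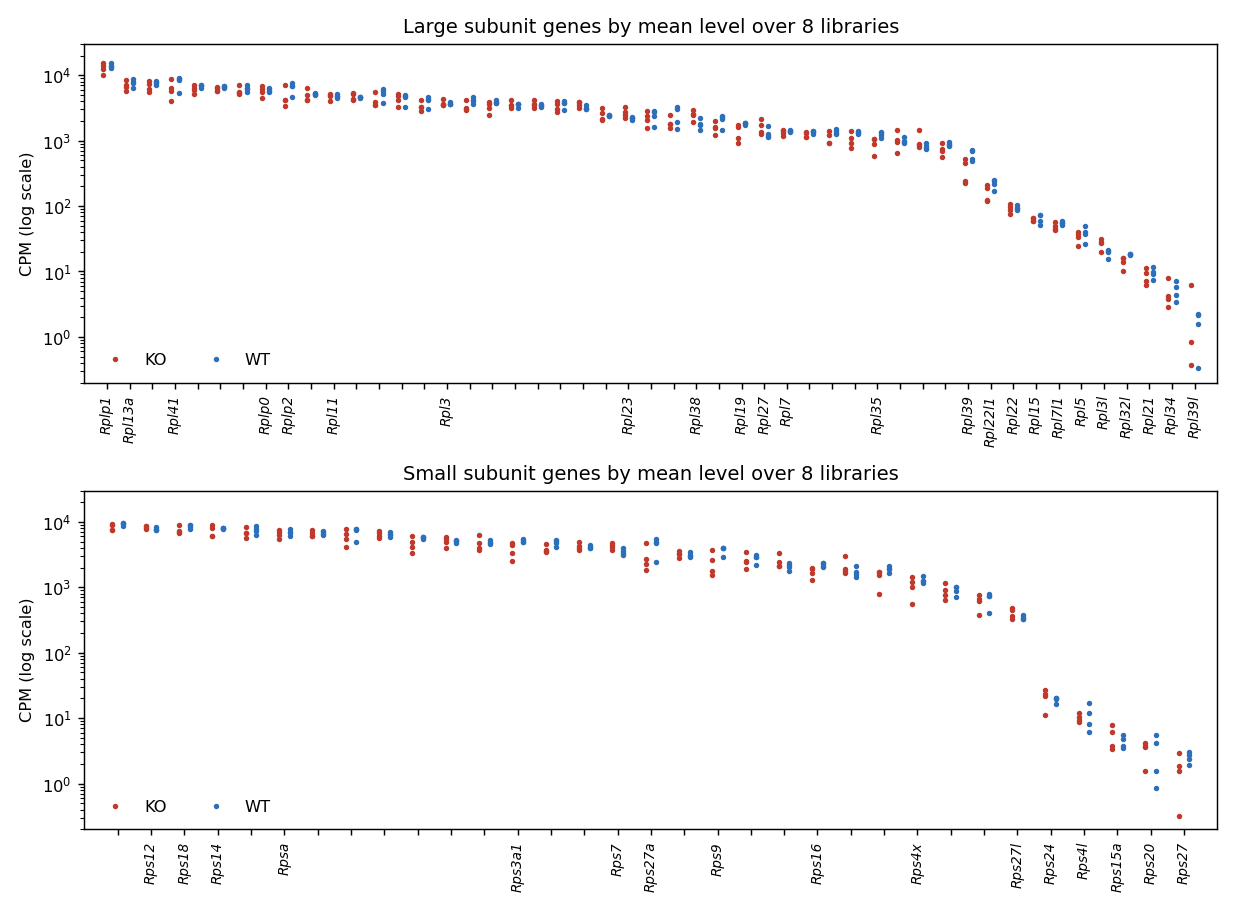
Level in CPM (log axis) of each member in each KO and WT library, with the members of each subunit ordered by their mean; values of 0 cannot be drawn on this axis, and only genes named in the text are labelled. Most genes form a plateau above 1000 CPM, and 14 genes lie under 100 CPM.

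Rplp1 stood at the top. It encodes an acidic protein of the stalk, the arm of the large subunit that draws in translation factors. Its level was 12594, 13925, 10157 and 15429 CPM across KO and 15626, 13735, 12907 and 13964 CPM across WT. Its partner Rplp2 had less than this in every library, with 3401, 4223, 4128 and 7087 CPM across KO and 6955, 7486, 4712 and 6813 CPM across WT. Rplp0, which anchors both to the ribosome, had 6126, 6921, 4516 and 5567 CPM across KO and 6069, 5460, 6266 and 5804 CPM across WT. The log2 fold changes of KO over WT for Rplp0, Rplp1 and Rplp2 were -0.03 ± 0.13, -0.11 ± 0.14 and -0.46 ± 0.19 (SE), and the edgeR adjusted p was 0.964, 0.807 and 0.385. The groups overlapped for all 3 stalk genes, and in Rplp2 both KO replicate 4 and WT replicate 3 lay among the libraries of the other genotype.

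Rpl13a and Rpl41 were also among the most abundant genes of the large subunit. Rpl13a averaged 6972 ± 1203 CPM across KO and 7707 ± 1003 CPM across WT (SD, n = 4 each). Rpl41, which encodes a very short basic peptide, varied more, with 4046, 5635, 6353 and 8836 CPM across KO and 9131, 8476, 5340 and 8862 CPM across WT. In the small subunit Rps12, Rps18 and Rps14 were among the top genes. Rps14, a gene lost in a human myelodysplastic syndrome, had 6075 to 9040 CPM across KO and 7734 to 8125 CPM across WT. Rps18 had 6776 to 9074 CPM across KO and 7651 to 8900 CPM across WT. Rps12 had the smallest ratio of highest to lowest library among the 79 tested members, with 8168, 8718, 7852 and 8567 CPM across KO and 8389, 7625, 7544 and 7783 CPM across WT, a ratio of 1.16. The log2 fold changes of these 5 genes lay between -0.35 for Rpl41 and 0.09 for Rps12, and their edgeR adjusted p between 0.534 and 0.816. Their groups overlapped.

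At the low end, 9 genes that are not paralogues lay under 100 CPM, although their proteins are regular parts of the ribosome: Rpl5, Rpl15, Rpl21, Rpl22, Rpl34, Rps15a, Rps20, Rps24 and Rps27. Rps27 and Rps20 did not reach the count filter, with 16 and 34 UMIs summed over KO, against 27 and 35 summed over WT. Rps15a had 9, 15, 19 and 9 UMIs in KO and 8, 12, 16 and 12 UMIs in WT. Rpl34 had 10, 8, 9 and 19 UMIs in KO and 8, 18, 17 and 14 UMIs in WT, and Rpl21 19, 12, 29 and 27 UMIs in KO and 27, 23, 29 and 23 UMIs in WT. Rps24, one of the genes mutated in Diamond-Blackfan anaemia, stood at 11.2 to 26.5 CPM across KO and 16.3 to 20.6 CPM across WT. Rpl5 stood at 24.3 to 40.5 CPM across KO and 26.7 to 49.9 CPM across WT, while Rpl11, whose protein binds Mdm2 together with the product of Rpl5, stood at 4069 to 5206 CPM across KO and 4489 to 5223 CPM across WT. Rpl5, Rpl11, Rpl15 and Rps20 were chosen here after their values were seen. None of the tested genes among these passed the test between groups (edgeR adjusted p of 0.715 to 0.970), and their groups overlapped.

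Processed pseudogenes and other near-copies can take reads away from a ribosomal protein gene when reads are assigned to a single place. The last 200 bases of 1 annotated transcript of each member were searched among all GENCODE M21 transcripts, counting other genes with at least 98% identity over at least 60 bases. The 9 low genes had 0 to 14 such copies with a median of 2, and the 66 other members that are not paralogues had 0 to 19 with a median of 2. Rpl21 had 14 copies, while none was found for the transcript searched of Rpl22, Rps20 or Rps24. That transcript was 474 bases long for Rpl22 but 3706 for Rps20 and 1613 for Rps24. The ends of other transcripts of these genes were not searched, so a count of 0 does not show that a gene lacks copies. The medians depend on the same choice of transcript. Whether copies took part in the low levels was not tested.

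Of the paralogues, Rpl22l1 and Rps27l had higher counts than their partners. Both partners, Rpl22 and Rps27, were among the low genes above, and whether their rows were undercounted was not tested. Rps27 held 1 to 7 UMIs per library and did not reach the count filter. Rpl22, whose loss in mice blocks αβ T cell development, had 76.0, 87.3, 95.8 and 108 CPM across KO and 94.6, 88.5, 105 and 94.0 CPM across WT. Rpl22l1, its paralogue, was above Rpl22 in each of the 8 libraries, at 121, 208, 124 and 192 CPM across KO and 172, 254, 240 and 214 CPM across WT. For Rpl22l1 the log2 fold change of -0.46 ± 0.16 (SE) had an edgeR adjusted p of 0.291, and for Rpl22 that of -0.06 ± 0.12 (SE) had 0.899. The groups overlapped in both. Rps27l, a target of p53, had 482, 452, 359 and 329 CPM across KO and 354, 374, 323 and 329 CPM across WT, where Rps27 had 0.324 to 2.93 CPM across KO and 1.91 to 3.01 CPM across WT. The log2 fold change of Rps27l was 0.23 ± 0.12 (SE, edgeR adjusted p = 0.516).

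In the other pairs the usual partner was far ahead. Rpl7 had 1157 to 1478 CPM across KO and 1336 to 1469 CPM across WT, against 43.6 to 56.6 CPM across KO and 52.0 to 59.1 CPM across WT for Rpl7l1. Rpl3 averaged 3743 ± 368 CPM across KO and 3693 ± 124 CPM across WT, and Rpl3l, a paralogue known from striated muscle, 26.7 ± 5.05 CPM across KO and 19.3 ± 2.67 CPM across WT (SD, n = 4 each). Rps4x stood at 555 to 1419 CPM across KO and 1156 to 1466 CPM across WT, and Rps4l at 8.61 to 12.1 CPM across KO and 6.11 to 17.2 CPM across WT. Rpl39l, known from testis, held 1, 12, 0 and 2 UMIs in KO and 5, 4, 1 and 7 UMIs in WT and was not tested. The 0 in KO replicate 3 allows up to 3 UMIs, or 0.971 CPM, by counting error alone. The 2 annotated pseudogenes Rps4l and Rpl32l resemble their parents in sequence, so their counts are uncertain.

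No ribosomal protein gene passed the test between KO and WT. Of the 79 members that passed the count filter (48 large, 31 small), 0 were higher and 0 lower at an edgeR quasi-likelihood adjusted p under 0.05, where 0.211% of all 9016 tested genes were called, 0.177% higher and 0.0333% lower. DESeq2 and limma-voom also called 0 members, whereas under the replicate block, and likewise when log2 total count was a covariate, 1 member passed, Rpl39. In the authors' deposited table none, that is 0 of 82 members, had an adjusted p under 0.05, where 0.33% of all its genes did. At an unadjusted p under 0.05 edgeR had 22 of 79 members, 4 higher and 18 lower, which is 5.06% and 22.8%, where all tested genes gave 5.12% higher and 5.71% lower. The number of members with an unadjusted p under 0.05 was 19 by DESeq2 and 23 by limma-voom.

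Most members lay slightly below 0. The median log2 fold change of the 79 was -0.12 (25th to 75th percentile -0.30 to 0.03), beside -0.00 over all tested genes, and 58 of 79, or 73.4%, lay below 0, where 50.5% of all genes did. Among 209 other genes with a mean of at least 500 CPM, the median was -0.02 and 57.4% lay below 0. The large subunit (median -0.13, 36 of 48 below 0) and the small subunit (median -0.10, 22 of 31 below 0) had the same sign. The median moved to -0.07 without KO replicate 1 and to -0.19 without KO replicate 4.

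**Figure D3:**
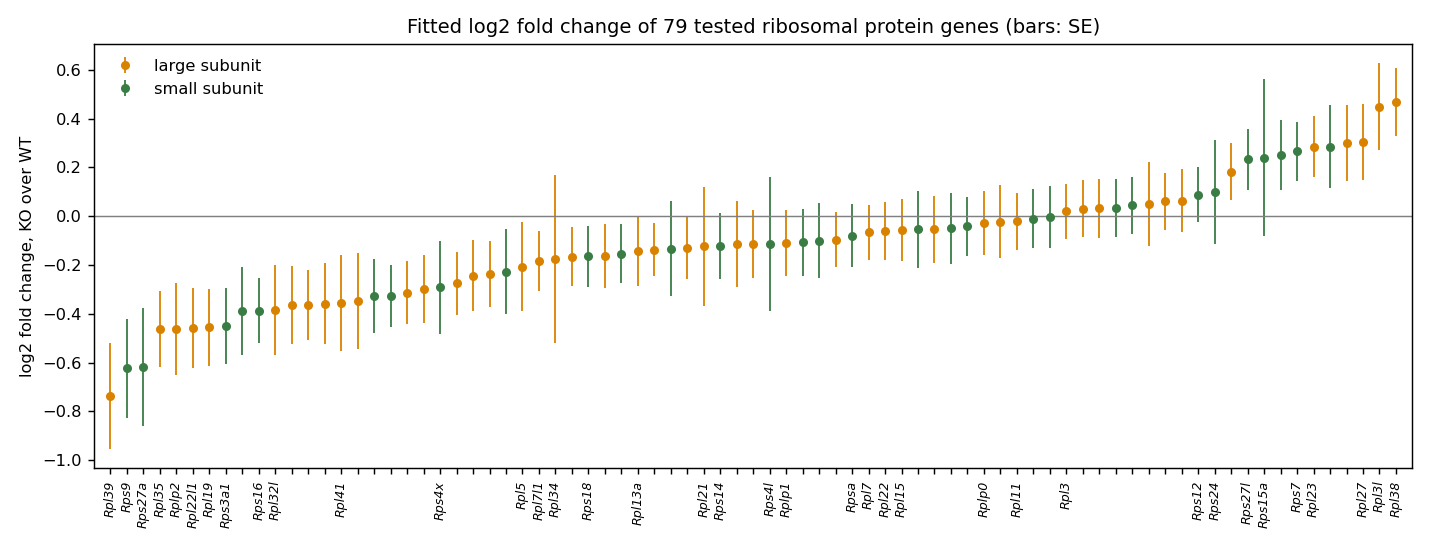
Fitted log2 fold change of KO over WT for the 79 tested members in ascending order, with bars for the SE and colour for the subunit; only genes named in the text are labelled. Values run from -0.74 for Rpl39 to 0.47 for Rpl38, and genes of both subunits are found throughout.

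Among the members with the lowest p, those lower in KO were Rpl39, Rps9, Rpl35, Rps16 and Rps3a1. Rpl39 encodes a small protein at the exit tunnel for the nascent chain. It had 221, 532, 245 and 462 CPM across KO and 486, 727, 683 and 528 CPM across WT. KO replicates 1 and 3 lay far below all WT libraries, while KO replicate 2 lay above WT replicates 1 and 4. The log2 fold change of Rpl39 was -0.74 ± 0.22 (SE), at an edgeR adjusted p of 0.212. Without KO replicate 2 it was -0.97 with an adjusted p of 0.030, so that the gene passed. It also passed with the replicate block, at -0.81 and an adjusted p of 0.0320, and when log2 total count was a covariate, at -0.999 and 0.0453.

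Rps9, a small subunit protein that binds ribosomal RNA early in assembly, had 1534, 2601, 1765 and 3647 CPM across KO and 3969, 3947, 2853 and 3931 CPM across WT. KO replicate 4 lay above WT replicate 3, and the other WT libraries lay close together above all of KO. Its log2 fold change was -0.62 ± 0.20 (SE), at an edgeR adjusted p of 0.245, and without KO replicate 4 it was -0.90 with an adjusted p of 0.035.

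Rpl35, another protein near the exit tunnel, had 582, 1073, 885 and 1054 CPM across KO and 1078, 1371, 1296 and 1207 CPM across WT. Rps16, whose tail reaches the decoding centre, had 1276, 1945, 1625 and 1927 CPM across KO and 2106, 2354, 2069 and 2326 CPM across WT. Rps3a1 had 2526, 4396, 3385 and 4678 CPM across KO and 4885, 5412, 4871 and 5303 CPM across WT. In these 3 genes every KO library lay below every WT library, and the lowest was KO replicate 1. Their log2 fold changes were -0.46 ± 0.16, -0.39 ± 0.13 and -0.45 ± 0.16 (SE), at edgeR adjusted p of 0.261, 0.273 and 0.281. The same separation held for Rpl19, named here after its values were seen, and for Rpl32l. Rpl19 had 925, 1613, 1093 and 1710 CPM across KO and 1738, 1868, 1866 and 1852 CPM across WT, and Rpl32l had 13.8, 16.1, 15.9 and 10.04 CPM across KO and 18.1, 18.2, 18.3 and 18.4 CPM across WT. In all, 5 of 79 members, or 6.33%, had groups that did not overlap, where 5.22% of all tested genes did. All 5 were lower in KO, where 2.31% of all tested genes were wholly lower and 2.92% wholly higher.

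On the other side were Rpl38, Rpl3l, Rpl23, Rps7 and Rpl27. Rpl38, whose loss in mice alters the axial skeleton through the translation of Hox mRNAs, had 2479, 2910, 2554 and 1954 CPM across KO and 1716, 1479, 2181 and 1777 CPM across WT. KO replicate 4 was the lowest KO library and lay below WT replicate 3, the highest of WT. The log2 fold change of Rpl38 was 0.47 ± 0.14 (SE), at an edgeR adjusted p of 0.214, and in the authors' deposited table, which gives WT over KO, it was -0.47 with an adjusted p of 0.124. Rpl3l had 28.1, 27.0, 19.7 and 31.8 CPM across KO and 20.6, 15.4, 20.04 and 21.3 CPM across WT.

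Rpl23 and Rps7 encode proteins that can bind Mdm2 when ribosome assembly fails. Rpl23 had 2485, 2758, 3240 and 2194 CPM across KO and 2206, 2233, 2285 and 2042 CPM across WT. Rps7 had 4351, 4697, 3751 and 4106 CPM across KO and 3645, 3285, 3970 and 3161 CPM across WT. Rpl27 had 1721, 2109, 1281 and 1363 CPM across KO and 1252, 1175, 1672 and 1149 CPM across WT. Their log2 fold changes were 0.28 ± 0.13, 0.27 ± 0.12 and 0.30 ± 0.16 (SE), at edgeR adjusted p of 0.413, 0.428 and 0.494, and the groups overlapped in each.

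**Figure D4:**
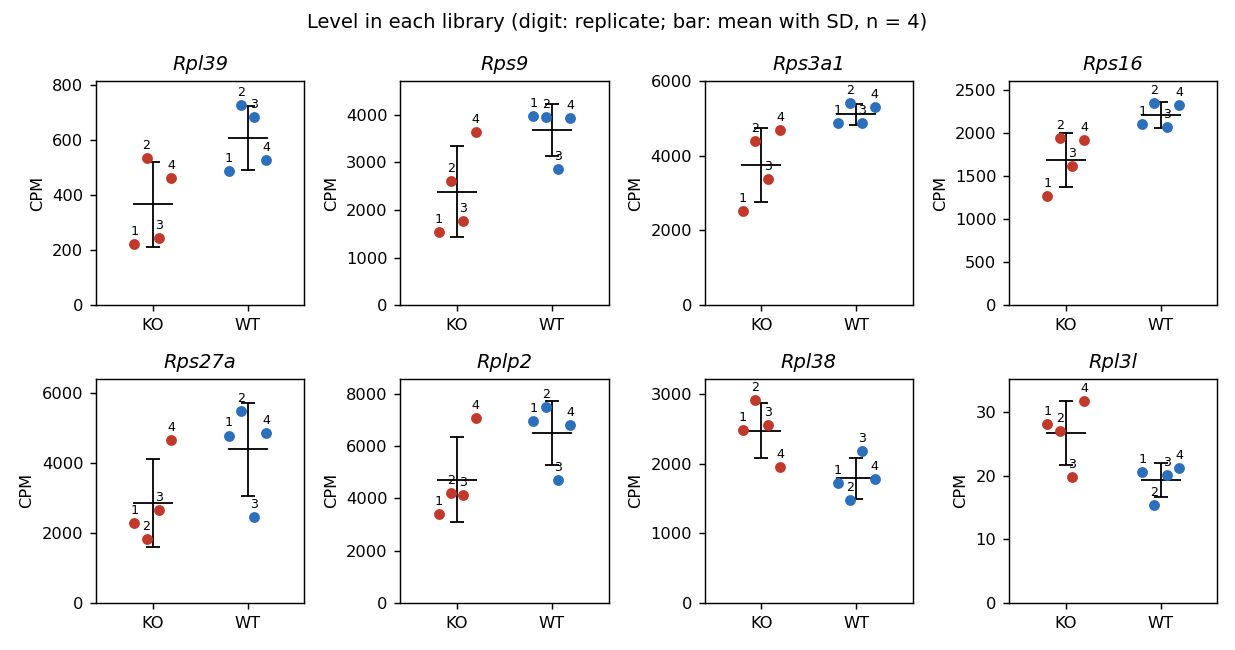
Level in CPM of 8 members in each library, with the replicate number above each point and the mean and SD of the 4 libraries per group. Rps3a1 and Rps16 show no overlap between KO and WT, while in Rps9, Rps27a and Rplp2 KO replicate 4 lies above WT replicate 3.

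For most members the replicates spread more in KO than in WT, a difference that was not tested. The coefficient of variation of a member's CPM had a median of 18.9% in KO and 9.35% in WT, and it was larger in KO for 69 of 79 members, or 87.3%. Among the 65 members with a mean of at least 500 CPM the medians were 18.3% in KO and 8.11% in WT, and 89.2% were more variable in KO. Among the 209 other genes with at least 500 CPM the medians were 12.0% in KO and 8.36% in WT, and 66.5% were more variable in KO. With each KO library left out in turn the members' median in KO was 15.6% to 19.2%, and with each WT library left out the median in WT was 5.12% to 9.89%, lowest without WT replicate 3. The fitted biological coefficient of variation, a single value per gene for both groups, had a median of 0.142 over members and 0.123 over all tested genes.

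The widest fitted variation was that of Rps27a, with a biological coefficient of variation of 0.243, followed by Rpl39, Rps4l and Rps9. Rps27a encodes a fusion of ubiquitin with a small subunit protein. It had 2283, 1838, 2668 and 4674 CPM across KO and 4795, 5504, 2455 and 4854 CPM across WT, so that KO replicate 4 and WT replicate 3 each lay among the libraries of the other genotype. Its log2 fold change was -0.62 ± 0.24 (SE), at an edgeR adjusted p of 0.361. Rpsa, the small subunit protein also known as a laminin receptor, was steadier, with 6950, 6203, 5504 and 7439 CPM across KO and 7736, 6716, 6101 and 7018 CPM across WT.

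Many members shared the library pattern of Rps27a. KO replicate 4 was the highest KO library for 40 of 79 members, and KO replicate 1 the lowest for 37, while WT replicate 3 was the lowest WT library for 41. KO replicate 4 was highest in 50.6% of members and 25.5% of all tested genes, and WT replicate 3 lowest in 51.9% and 28.1%. Both conditions, KO replicate 4 highest and WT replicate 3 lowest, were met by 29 members, or 36.7%, and by 10% of all tested genes. The opposite arrangement, seen in Rpl38, was met by 4 members, or 5.06%, and by 8.11% of all tested genes. KO replicates 1 to 4 had 19, 41, 26 and 57 members above the gene's own mean of 8 libraries, against 51, 61, 40 and 56 in WT replicates 1 to 4. The heat shock share was 3.76% in KO replicate 1 and 3.73% in KO replicate 4, the libraries with the lowest and highest member share of KO. The part of heat shock in the member values was not tested. A further fit included the heat shock mean, the mean of log2(CPM + 1) over the 10 tested genes of that list, which is a different measure from the share. It cannot cleanly separate heat shock from genotype, because 9 of these 10 genes lay above 0 in KO, with a median log2 fold change of 0.28. In that fit the median log2 fold change of members was -0.20 and 0 members passed (edgeR, 26 members at an unadjusted p under 0.05). Of all 9016 tested genes 0 passed there.

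**Figure D5:**
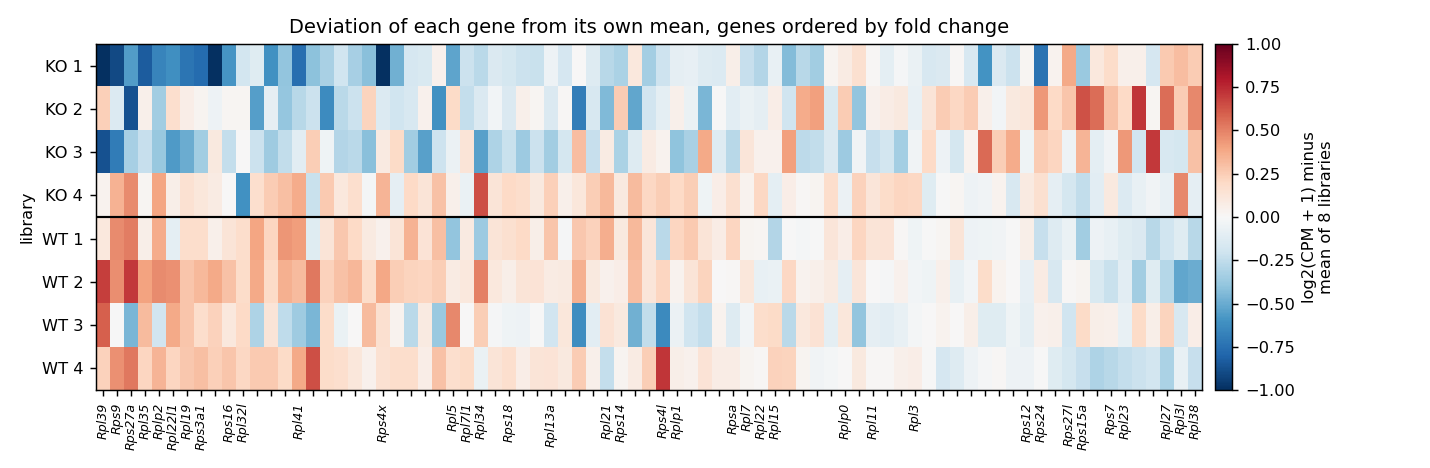
Deviation of log2(CPM + 1) from each gene's mean of 8 libraries for the 79 tested members, in columns ordered from the lowest to the highest log2 fold change, with KO libraries above WT libraries and labels for genes named in the text. KO replicate 1 is low in most columns, and KO replicate 4 and WT replicate 3 often have the colour of the other genotype.

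Other proteins of the ribosome lie outside the symbol rule. Fau, whose product carries a small subunit protein behind a ubiquitin-like part, averaged 1497 ± 253 CPM across KO and 1869 ± 119 CPM across WT (SD, n = 4 each), with every KO library below every WT library and an edgeR adjusted p of 0.361. Rack1, a signalling scaffold on the small subunit, averaged 6327 ± 624 CPM across KO and 6345 ± 328 CPM across WT (edgeR adjusted p = 0.997).

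The wider pathway showed no call either. Of 18 TOP mRNA genes that do not encode ribosomal proteins, 48 tested ribosome biogenesis genes, 14 tested genes of RNA polymerase I and its factors and 17 genes of mTOR signalling to TOP mRNAs, 0 rose and 0 fell by edgeR, where 0.211% of all tested genes were called. At an unadjusted p under 0.05, which 10.8% of all tested genes reached, were 3 TOP genes, all lower, 4 biogenesis genes, 1 higher and 3 lower, 3 polymerase genes, 1 higher and 2 lower, and 0 mTOR genes. The median log2 fold changes of these lists were -0.06, -0.07, -0.07 and -0.02. In the same order 13 of 18, 33 of 48, 9 of 14 and 9 of 17 tested genes lay below 0, where 50.5% of all tested genes did. In the TOP list, the initiation factor subunit gene Eif3e stood at 170 ± 69.2 CPM across KO and 258 ± 30.5 CPM across WT, and Npm1, which encodes a nucleolar chaperone of ribosome assembly, at 815 ± 226 CPM across KO and 1145 ± 178 CPM across WT (SD, n = 4 each), with edgeR adjusted p of 0.251 and 0.274. Snhg1, a TOP RNA that hosts small nucleolar RNAs, had a log2 fold change of -0.58 ± 0.19 (SE, edgeR adjusted p = 0.236).

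Among biogenesis genes the lowest p belonged to Ddx21, Emg1 and Imp4, which act in processing of the ribosomal RNA precursor, with log2 fold changes of -0.31, -0.33 and -0.24 and edgeR adjusted p of 0.385, 0.394 and 0.406. Ddx18, a helicase gene named here after its values were seen, was the fourth with an unadjusted p under 0.05 and lay the other way, at 0.30 ± 0.13 (SE, edgeR adjusted p = 0.410). Polr2f, a subunit shared by the nuclear RNA polymerases, had -0.40 ± 0.13 (SE), Znrd1, a subunit of RNA polymerase I, 0.27 ± 0.10, and Taf1d, a subunit of its initiation factor, -0.46 ± 0.19, with edgeR adjusted p of 0.236, 0.292 and 0.382. In the mTOR list, Larp4, Rps6kb1 and Eif4ebp2 had edgeR adjusted p of 0.468, 0.519 and 0.654.

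Of 8 tested genes of the MYC family and partners 0 passed by edgeR, with 2 at an unadjusted p under 0.05, both higher. In this list and those that follow, such counts stand beside the 10.8% of all tested genes. The median log2 fold change of the MYC list was -0.06, and 5 of its 8 tested genes lay below 0. Myc, a transcription factor that drives growth, averaged 98.4 ± 39.1 CPM across KO and 54.1 ± 9.26 CPM across WT (SD, n = 4 each). The groups overlapped, with KO replicate 2 at 55.6 CPM and WT at 46.9 to 66.7 CPM. The fitted log2 difference of Myc was 0.88 ± 0.21 (SE), at an edgeR adjusted p of 0.0988. Mycn had 18.9 ± 3.94 CPM across KO and 12.0 ± 0.983 CPM across WT (edgeR adjusted p = 0.204), with every KO library above every WT library. In the list of ribosomal stress and p53 genes 0 of 10 passed and 1 had an unadjusted p under 0.05, Pmaip1, a death gene, at 65.0 ± 6.73 CPM across KO and 47.3 ± 10.2 CPM across WT (edgeR adjusted p = 0.228). Cdkn1a and Mdm2 had edgeR adjusted p of 0.474 and 0.741. In the list of ribosome rescue and quality control 0 of 9 passed and 1 had an unadjusted p under 0.05, Pelo, which frees stalled ribosomes, with a log2 fold change of 0.29 ± 0.12 (SE, edgeR adjusted p = 0.410). Of 14 tested genes of S, G2 and M phase 0 passed by edgeR and 2 had an unadjusted p under 0.05, both higher. Their median log2 fold change was 0.10, with 13 above 0 and 1 below, where 50.5% of all tested genes lay below 0. Whether division differed between the groups was not tested.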

How the data were processed

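RNA was profiled by MARS-seq, per the labels' protocols. Tools named without roles in the submitters' processing notes are STAR 2.5.2b, HTSeq, cutadapt, bcl2fastq and DESeq2, with build mm10. For strand and for reads matching several genes the handling was not given in the sources used here. The authors deposited raw UMI counts, whole numbers that were the only values tested. The authors' normalized signal values (counts over a size factor) and regularized log2 values were not used. The deposited log2 fold change (WT over KO), p-value and adjusted p-value are quoted as the authors' own.

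Counts were fitted in R 4.3.3 with edgeR 4.0.16 (quasi-likelihood, TMM, group as the only term) over all 9016 genes kept by filterByExpr (minimum count 10), with Benjamini-Hochberg adjustment, and the fit was tested on simulated data. SEs come from the F statistic. DESeq2 1.42.0 and limma 3.58.1 served as alternatives. Sums and shares were described without a test. Copies of 3′ ends were searched with BLAST 2.17.0. No pair of libraries agreed within sampling noise (chi-square over degrees of freedom of at least 2.74). Counting limits cover counting error only.

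The members, lists and tests were chosen with earlier results of these data known. Named members were those highest and lowest in level, lowest in p in either direction and highest in variation, paralogue pairs, the stalk genes, Rpsa and Rps27a, and for lists those with the lowest p. Results of some genes named by this rule are not reported here.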

Additional observations from a re-analysis of the deposited data

Results flagged for a closer look

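In 4 of 82 groups of 4 libraries that were examined, 1 library stood apart from the other 3 by Dixon's criterion, and chance flags about 1 in 20 groups. Rps18 stood at 9074 CPM in KO replicate 4 and at 6776 to 7146 CPM in the other KO libraries. Rpl3 stood at 4293 CPM in KO replicate 4 and at 3528 to 3618 CPM in the other KO libraries. Rpl39l stood at 6.24 CPM in KO replicate 2, from 12 UMIs, and at 0 to 0.837 CPM in the other KO libraries. Rps9 stood at 2853 CPM in WT replicate 3 and at 3931 to 3969 CPM in the other WT libraries.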

How the results depend on the processing

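The number of members called higher was 0 under every alternative run. The number called lower was 0 under the other normalizations, filters and tools, and 1 with the replicate block and when log2 total count was a covariate. It was 0 to 1 with 1 library left out. The gene was Rpl39 under the block (-0.81), with total count (-0.999) and without KO replicate 2, and Rps9 without KO replicate 4. Replicate numbers did not pair the libraries, with correlations of same-numbered deviations of -0.01 to 0.14, so the block is no paired analysis. Over all genes the count called was 19, against 47 by DESeq2, 43 by limma-voom with quality weights, 60 with the block, 40 with total count, 0 with the heat shock mean and 1 to 39 with 1 library left out. The members' median log2 fold change was -0.19 to -0.07 with 1 library left out, -0.20 with the heat shock mean and -0.07 with the thymocyte mean as a covariate, both chosen after seeing the data. The share difference was -2.41 to -1.24 points with 1 library left out. The large to small ratio difference was 0.130 from median CPM, and -0.00716 to 0.00659 with 1 library left out, so its sign is not stable. Of 730 values of single named genes 711 kept direction and call, 4 passed the test and 15 changed sign, none of them a gene that passed; the cause was not tested. With 1 library left out these ran -0.56 to 0.0252 for Rpl34, -0.0182 to 0.31 for Rps24, -0.32 to 0.23 for Rps4l, -0.15 to 0.0226 for Rpl22, -0.0539 to 0.0520 for Rpl3 and -0.12 to 0.0727 for Rplp0. With the thymocyte covariate the values were 0.0421 for Rpl21, -0.0016 for Rps24 and 0.0186 for Rpsa, with the heat shock covariate -0.10 for Rpl3 and 0.0269 for Rplp0, with quality weights -0.0744 for Rps24 and 0.0119 for Rplp0, and with total count 0.0354 for Rps4l. Members with few UMIs had wide SEs (0.345 for Rpl34 and 0.323 for Rps15a, against 0.137 for Rplp1), but others under 100 CPM did not (0.118 for Rpl22).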

Other observations

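Rows named as ribosomal protein pseudogenes held few UMIs. The 5 rows Rpl14-ps1, Rpl31-ps12, Rps15a-ps6, Rps19-ps3 and Rps6-ps4 together held 162 to 232 UMIs in KO libraries and 231 to 292 UMIs in WT libraries, beside 499433 to 724000 UMIs of member genes in KO and 674443 to 881546 in WT. Rps6-ps4 varied between libraries of the same genotype, with 90, 19, 17 and 37 UMIs in KO and 82, 14, 57 and 66 UMIs in WT. Rps15a-ps6 held 9, 31, 25 and 3 UMIs in KO and 10, 14, 33 and 10 UMIs in WT, beside 9, 15, 19 and 9 UMIs in KO and 8, 12, 16 and 12 UMIs in WT for Rps15a.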
